A study of Oryctolagus cuniculus with 3 samples.

Results

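The GALNT genes encode polypeptide N-acetylgalactosaminyltransferases, the Golgi enzymes that start mucin-type O-glycosylation. The 10 described here are GALNT1, GALNT2, GALNT3, GALNT6, GALNT7, GALNT10, GALNT11, GALNT12, GALNT13 and GALNT14. They were found as rows of the deposited gene table that carry exactly these names and a RefSeq messenger RNA. They are 10 of 15009 coding genes with at least 10 estimated counts in 1 of the libraries CG and LAC, out of 39681 loci in the table. The genes were picked with their CG and LAC values known, so those values are given as a description and no test is attached to them.

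Each enzyme of the family moves N-acetylgalactosamine from the donor UDP-GalNAc onto a serine or threonine of a protein passing through the Golgi. The family is large because its members differ in which peptides they accept, and some act mainly on peptides that another member has already glycosylated. Later enzymes extend this first sugar into core structures and cap them with sialic acid, and the products cover mucins and stretches of many other secreted and membrane proteins, among them the matrix proteoglycans that cumulus cells lay down around the oocyte.

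The RNA came from rabbit cumulus-oocyte complexes, each an oocyte with its surrounding somatic cells, dissected from ovaries. Per the labels, 150 female IRA rabbits entered the study at an age of 35 days and lived for 4 weeks in climate rooms in 3 groups. The groups breathed ammonia at under 3 ppm (control group, CG), 10 ppm (low ammonia, LAC) or 30 ppm (high ammonia, HAC). Each group is represented by 1 library, and no source used here gives the number of animals behind it. All values below therefore compare libraries, with no replicate check, and intervals cover counting error only.

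The gene table in the file of HAC repeats that of LAC in all 39681 rows, so gene values exist here for CG and one other library, used as LAC. Whether that second library is LAC is uncertain: the table's highest FPKM, 39492, is the value that the statistics block of the HAC file lists, while the block of the LAC file lists 86394. Estimated counts summed to 78461882 in CG and 68523767 in LAC. The authors' mapping blocks give 92.7% mapped and 22.01% spliced reads for CG, against 93.21% and 16.23% in the file of LAC and 90.25% and 19.89% in that of HAC. The valid read totals of the latter 2 files are exchanged between their blocks (72141648 and 72520954), so these percentages may belong to the other library. CPM values are estimated counts relative to library size, scaled by trimmed mean of M values (TMM). A CPM also depends on transcript length, so it does not order genes by their abundance. The deposited gene FPKM did not offer a length-scaled order either, since 1 FPKM stood for 27.1 counts of GALNT2 and 915 counts of GALNT12 in CG.

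Markers of both cell types of the complex were detected in both libraries. The granulosa and cumulus markers included FSHR, the receptor for follicle-stimulating hormone, at 346 CPM in CG and 414 CPM in LAC. Summed over 13 measured markers of that kind, the level was 17148 CPM in CG and 16811 CPM in LAC. The summed level of 22 oocyte markers was 5967 CPM in CG and 1197 CPM in LAC. CG thus exceeded LAC 4.99-fold in these markers.

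Of the 10 GALNT genes, 2 were lower in LAC than in CG by the size rule and 0 were higher. The rule asks for a difference of at least 1 on the log2(CPM + 1) scale, with at least 10 counts in the higher library. Those that passed were GALNT13 and GALNT6. Among all 15009 coding genes 11.0% were lower and 1.89% higher by the same rule, and since the genes were chosen on this contrast nothing is read from their share. The difference was below 0 for 7 of the 10 and above 0 for 3. The median difference was -0.36, beside -0.14 over all coding genes. All 10 reached 10 counts in a library, but GALNT13 did so through CG alone. Added together, the 10 genes gave 477 CPM in CG and 424 CPM in LAC. All 15009 coding genes together gave 747105 CPM in CG and 664373 CPM in LAC. CG exceeded LAC 1.12-fold in both sums, so the total of the 10 genes differed as that of all coding genes did.

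**Figure D1:**
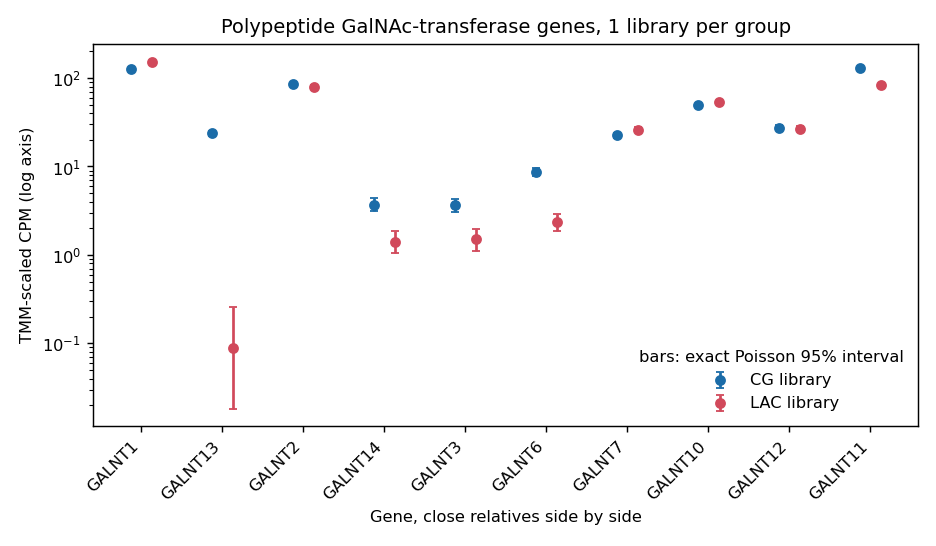
TMM-scaled CPM of the 10 GALNT genes on a log axis, with 1 point for the CG library and 1 for the LAC library and bars for the exact Poisson 95% counting interval. GALNT13 stands apart at 23.7 CPM in CG and 0.0884 CPM in LAC, GALNT6, GALNT3 and GALNT14 are lower in LAC, and the other genes differ less.

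GALNT1 and GALNT13 are close relatives, and they lay at opposite ends of the 10 genes. GALNT1, a widely expressed initiating enzyme, gave 125 CPM in CG (95% interval 122 to 129) and 150.2 CPM in LAC (146 to 154). The levels were thus 1.20-fold higher in LAC (1.15 to 1.25), a difference of 0.26 that the size rule does not call. GALNT1 lies on the plus strand of sequence NC_013677.1, from 76884884 to 77013497, in the build OryCun2.0 that the submitters' processing notes name.

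GALNT13 is known as an enzyme of nervous tissue. Its level was 23.7 CPM in CG (22.2 to 25.2), from 1874 estimated counts, and 0.0884 CPM in LAC (0.0182 to 0.258), from 6 estimated counts. A deposited count stands for about 0.5 reads, so these are about 937 reads against 3. GALNT13 was 268-fold lower in LAC, with a counting interval from 91.4-fold to 1301-fold, and its difference of -4.50 was the lowest of all 15009 coding genes. The gene spans 530118 bases of the plus strand of NC_013675.1, from 92772650 to 93302767. A second row under its name, the strandless locus MSTRG.6821 that starts 1262 bases past the gene's end, showed 121 counts in CG and 0 in LAC. This small row carries the gene's name and has no strand, so it is no independent second observation. Whether its reads belong to GALNT13 RNA was not tested. Such small rows also carry the names of GALNT7 (48 counts in CG and 44 in LAC) and GALNT14 (78 and 27), so 13 rows hold the 10 names. Summing them with their genes brought GALNT14 past the size rule and changed no other call.

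GALNT2 and GALNT14 form another pair of relatives. GALNT2, which glycosylates regulators of lipid metabolism, gave 84.6 CPM in CG (81.7 to 87.5) and 79.6 CPM in LAC (76.6 to 82.6). The ratio of LAC to CG was 0.941 (0.894 to 0.990), so GALNT2 differed little between the libraries. GALNT14, known for glycosylating death receptors, gave 3.70 CPM in CG (3.13 to 4.35) and 1.41 CPM in LAC (1.04 to 1.87). It was 2.62-fold lower in LAC (1.88 to 3.71), outside counting error. The difference of -0.96 on the log2(CPM + 1) scale stayed just short of the rule. GALNT2 lies on the minus strand of NC_013684.1 from 37580175 to 37778354, and GALNT14 on the plus strand of NC_013670.1 from 154941536 to 155148948.

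GALNT3 and GALNT6 are relatives with overlapping substrates, and both were lower in LAC. GALNT6, known for acting on fibronectin and on mucins in epithelia, gave 8.65 CPM in CG (7.76 to 9.62) and 2.34 CPM in LAC (1.86 to 2.92). That is 3.70-fold lower (2.89 to 4.78), a difference of -1.53 that passed the rule. The 5th percentile of all coding genes was also -1.53, and GALNT6 ranked 740 from the lowest. GALNT3, whose best known substrate is the phosphate hormone FGF23, gave 3.64 CPM in CG (3.07 to 4.28) and 1.502 CPM in LAC (1.12 to 1.97). GALNT3 was 2.42-fold lower in LAC (1.75 to 3.40), with a difference of -0.89 that did not pass. FGF23 itself had 0 counts in CG and 7 in LAC. GALNT3 lies on the minus strand of NC_013675.1, the sequence that also holds GALNT13, from 105153797 to 105208622.

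GALNT7 and GALNT10 act on peptides that already carry a sugar, a follow-up step to the work of the initiating enzymes. GALNT7 gave 22.5 CPM in CG (21.04 to 24.02) and 26.2 CPM in LAC (24.5 to 27.9), a ratio of 1.16 (1.06 to 1.28). GALNT10 gave 49.0 CPM in CG (46.8 to 51.2) and 53.0 CPM in LAC (50.5 to 55.5), a ratio of 1.08 (1.01 to 1.15). Both were slightly higher in LAC, and neither came near the size rule. GALNT12, known from the digestive tract, gave 27.4 CPM in CG (25.8 to 29.1) and 26.8 CPM in LAC (25.0 to 28.6). Its ratio of 0.977 (0.894 to 1.07) was within counting error of no difference. GALNT7 lies on the plus strand of NC_013670.1 from 51041697 to 51182541, and GALNT10 on the plus strand of NC_013671.1 from 35614544 to 35869808. GALNT12 lies on the minus strand of NC_013669.1 from 14367513 to 14398495.

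GALNT11 glycosylates the linkers between ligand-binding repeats of LDL-receptor-type proteins such as LRP2 and also acts on NOTCH1. It gave 129 CPM in CG (125 to 132) and 83.1 CPM in LAC (80.1 to 86.2). The level was 1.55-fold lower in LAC (1.48 to 1.62), a difference of -0.63. With 10197 and 5644 counts this difference was well outside counting error, though short of the rule. GALNT11 lies on the plus strand of NC_013681.1 from 13413621 to 13471731. Its substrate LRP2 gave 5.03 CPM in CG and 6.49 CPM in LAC.

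The direction of 2 genes depended on the scaling. With TMM factors from coding genes alone the median coding gene moved from -0.14 to -0.0028, and GALNT2 and GALNT12 then came to 0.09 and 0.14, with 5 of the 10 genes above 0 and 5 below. GALNT13 and GALNT6 passed the rule under that scaling too. The count of lower genes depended on the pseudocount. With 0.1 in place of 1, GALNT3 and GALNT14 passed as well, 4 of 10, where 18.3% of coding genes were lower and 6.28% higher. With 5, GALNT6 did not pass and GALNT13 alone did, where 6.06% were lower and 0.746% higher. A rule of 2 on the log2 scale also left GALNT13 alone.

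Some of these genes have copies in the rabbit genome that could share reads. LOC100351119, named after GALNT1 in the deposited description and only 1615 bases long, gave 32.0 CPM in CG and 29.7 CPM in LAC. GALNT1 and this copy together gave 157 CPM in CG and 180.0 CPM in LAC, a ratio of 1.15 (1.11 to 1.19). The loci named after GALNT11, LOC103350710 and LOC100340941, had at most 4 counts, and LOC103350251, named after GALNT13, had 0 counts in both libraries. The low value of GALNT13 in LAC was not accompanied by counts at its named copy, and sharing of reads with other loci was not tested.

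GALNT18 was the one gene past the rule in the rest of the family. Of the list of 10 other GALNT-type genes, 7 had enough counts, 0 were higher and 1 was lower. Among all coding genes 1.89% were higher and 11.0% lower. GALNT18, an enzyme of low activity that is grouped with GALNT8 and GALNT9, gave 5.63 CPM in CG. In LAC it gave 1.87 CPM, 3.01-fold lower (2.27 to 4.05). GALNT16, the third relative of GALNT2 and GALNT14, had 22.4 CPM in CG against 22.3 CPM in LAC. The values of GALNT5 were 21.7 CPM and 19.6 CPM. The median difference of the 7 was -0.14, as it was over all coding genes to 2 decimals. With a pseudocount of 5 the call of GALNT18 was lost, at -0.63. With one of 0.1, GALNT8 was lower too and GALNT9 and GALNT15 were higher. GALNTL5 had 0 counts in both libraries. GALNT4, the relative of GALNT12, appears in the table only as a row merged with POC1B and was not separated from it.

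Among enzymes that extend the first sugar, C1GALT1 was far higher in LAC. C1GALT1, which adds galactose to make the core 1 structure, gave 41.0 CPM in CG and 169 CPM in LAC. It was 4.12-fold higher in LAC (3.90 to 4.36), a difference of 2.02. Its dedicated chaperone C1GALT1C1 gave 42.2 CPM in CG and 46.3 CPM in LAC. A copy named after C1GALT1, LOC100350700, went the other way, from 6.72 CPM to 1.16 CPM, and the sum of both was 3.57-fold higher in LAC (3.39 to 3.76).

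GCNT1, which branches core 1 into core 2, was lower in LAC, from 6.53 CPM in CG to 1.96 CPM, a 3.33-fold difference (2.54 to 4.43). Among sialyltransferases, ST6GALNAC5 was 2.35-fold higher in LAC (2.06 to 2.69), at 8.53 CPM and 20.1 CPM. ST6GALNAC2 was 14.8-fold lower (5.52 to 55.8), at 1.74 CPM in CG and 0.118 CPM in LAC. ST6GALNAC3 and ST3GAL1 did not pass the rule, at 163 and 133 CPM and at 62.3 and 85.5 CPM in CG and LAC. In all, 2 of 13 measured extension enzymes were higher and 2 lower, with a median difference of 0.42, beside 1.89% higher and 11.0% lower over all coding genes. With a pseudocount of 5, C1GALT1 alone passed, and ST6GALNAC5 was at 0.89, GCNT1 at -0.73 and ST6GALNAC2 at -0.40.

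The sugar donor list covers the enzymes and transporters that make UDP-GalNAc and activated sialic acid and bring them into the Golgi. Of its 15 measured genes 1 was higher and 0 lower, beside 1.89% higher and 11.0% lower among all coding genes. Their median difference was 0.09. The higher gene was GFPT2, a form of the entry enzyme of the hexosamine pathway, with 0.606 CPM in CG against 6.18 CPM in LAC, a 10.2-fold difference (6.67 to 16.3). Its difference of 2.16 became 1.13 with the deposited FPKM and 0.996, short of the rule, with a pseudocount of 5. Its relative GFPT1 gave 282 CPM in CG and 290 CPM in LAC, so the form with far more counts differed little. GNE, the entry enzyme of sialic acid synthesis, gave 57.5 CPM and 88.5 CPM, and GNPNAT1 of the hexosamine pathway gave 58.3 CPM and 51.8 CPM.

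Of the proteins that carry such glycans, 1 passed the rule in each direction. The list had 17 measured mucins and mucin-domain proteins, with a median of -0.10. Among all coding genes 1.89% were higher and 11.0% lower. VCAN, the proteoglycan versican of the cumulus matrix, had 2933 CPM in CG against 2921 CPM in LAC, and dystroglycan (DAG1) 1046 CPM against 977 CPM. The hyaluronan receptor CD44 gave 1413 CPM in CG and 798 CPM in LAC without passing the rule. The membrane mucin MUC15 was 4.39-fold lower in LAC (2.84 to 7.04), at 3.23 CPM and 0.736 CPM respectively. CD34, a mucin-type surface protein of endothelial and stromal progenitor cells, was 9.13-fold higher (3.90 to 26.1), at 0.152 CPM and 1.38 CPM. Both calls rest on low values. With a pseudocount of 5, CD34 was at 0.31 and MUC15 at -0.52, and with the deposited FPKM CD34 was at 0.48, none past the rule. MUC1, MUC21, MUC5AC, OVGP1 and SPN had 0 counts in both libraries.

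Glycosyltransferases of other pathways served as a comparison. Of 19 measured, 1 was higher and 0 lower, with a median of -0.03. MGAT1, which opens the way to complex N-glycans, was 2.32-fold higher in LAC (2.20 to 2.45), at 50.6 CPM in CG and 117 CPM in LAC. MGAT4A gave 1319 CPM and 1092 CPM, the oligosaccharyltransferase subunit STT3A gave 383 CPM and 330.1 CPM, and EXT1 of heparan sulfate synthesis gave 313 CPM and 359.6 CPM. In the pathway annotation that the authors deposited with the table, 28 genes of mucin-type O-glycan biosynthesis had enough counts. C1GALT1 was the 1 higher gene among them, and GALNT6, GALNT13, GALNT18 and GCNT1 were the 4 lower ones, with a median of -0.06. GALNT6 and GALNT13 were chosen on this contrast. Without the 10 genes described here, 18 were measured, 1 was higher and 2 were lower, with a median of -0.03, beside 1.89% higher and 11.0% lower among all coding genes.

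**Figure D2:**
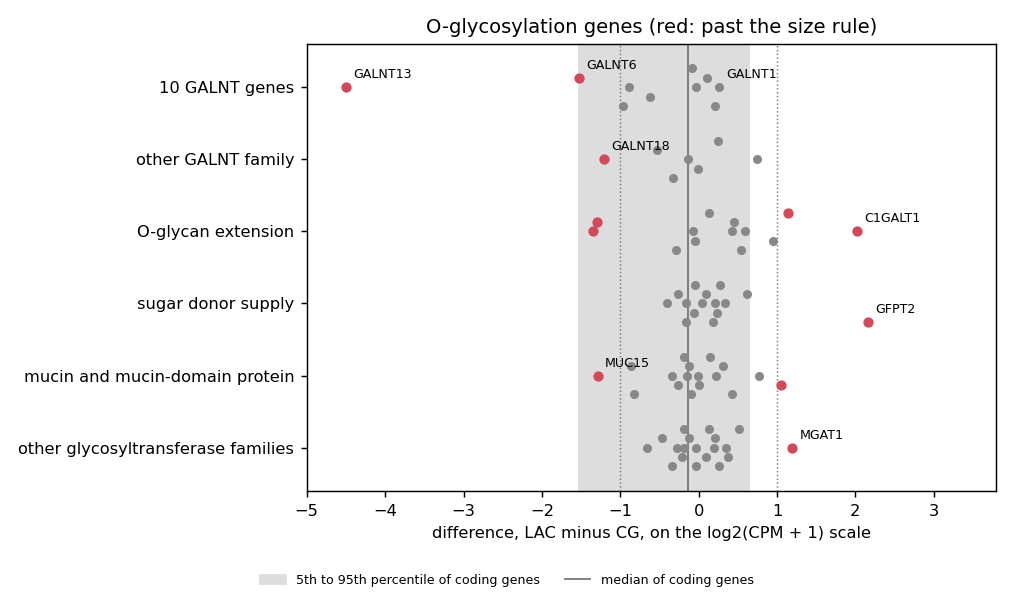
Difference between LAC and CG on the log2(CPM + 1) scale for each measured gene of the 10 GALNT genes and of 5 lists, 1 row of points per list, with red points for genes past the size rule (dotted lines at -1 and 1) and a grey band from the 5th to the 95th percentile of coding genes. GALNT13 at -4.50 lies far left of the band, and C1GALT1 at 2.02 and GFPT2 at 2.16 lie right of it.

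Cell type markers differed between the same libraries. All 22 oocyte markers with counts were lower in LAC by the rule, between -2.88 for MAEL, a factor of germ-line small RNA pathways, and -1.28 for FIGLA, an oocyte transcription factor. Their median was -2.08. SOHLH1, another factor of early oocytes, had 0 counts in both libraries, and TLE6 was not matched by name. Of 13 granulosa and cumulus markers 0 were higher and 1, SLC18A2, was lower, with a median of -0.01. Among all coding genes 1.89% were higher and 11.0% lower by the rule. In bulk RNA fewer cells of a type and less RNA per cell cannot be told apart. GALNT13 was lower than every oocyte marker. GALNT6, at -1.53, lay above the oocyte median but within the range of the oocyte markers. GALNT3 at -0.89 and GALNT14 at -0.96 lay above that range. The scale shrinks differences at low CPM, so that FIGLA was at -1.28 though 6.17-fold lower in LAC. The part of these marker differences in the GALNT values was not tested.

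Genes listed as markers of other cells that a dissected complex can carry also differed. Which cells gave these RNAs was not tested. For stroma, 7 of 10 markers were higher in LAC and 0 lower, beside 1.89% higher and 11.0% lower among all coding genes. The summed level of the stroma markers went from 43.5 CPM in CG to 175 CPM in LAC. For epithelium, 4 of 9 markers were measured, with 2 differences above 0 and 2 below. KRT18 was higher by the rule and KRT8, at 0.84, did not pass, while EPCAM and CDH1 were lower. The sum was 82.9 CPM in CG and 21.8 CPM in LAC, most of it from CDH1 at 64.1 CPM and 12.8 CPM. The epithelial markers CLDN3, CLDN4, KRT19, OVGP1 and PAX8 were at 0 in both libraries. For endothelium, 1 of 7 markers, TEK, was lower. That gene made up most of the sum of 49.0 CPM in CG and 8.36 CPM in LAC. The difference was above 0 for 5 of the 7 and below 0 for 2, with a median of 0.25. CDH5 and ERG, both at 0 counts in CG, passed as higher with a pseudocount of 0.1.

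For macrophages, MRC1 and CD163 were higher and MSR1 was lower among 6 measured markers, with a sum of 52.9 CPM in CG and 25.7 CPM in LAC. MSR1 made up most of the CG sum, at 47.3 CPM in CG and 8.20 CPM in LAC. The difference was above 0 for 5 of the markers and below 0 for 1, with a median of 0.63. For neurons, the cells in which GALNT13 is best known, 0 of 5 measured markers passed the rule in either direction. Their median was -0.25 and their sum 22.1 CPM in CG and 16.3 CPM in LAC, most of it from the synaptic vesicle protein SYT1. RBFOX3 and STMN2 were at 0 in both libraries. With a pseudocount of 5, KRT18 and CD163 did not pass and 4 of 10 stroma markers did. The part of these cell types in the GALNT values was not tested either.

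**Figure D3:**
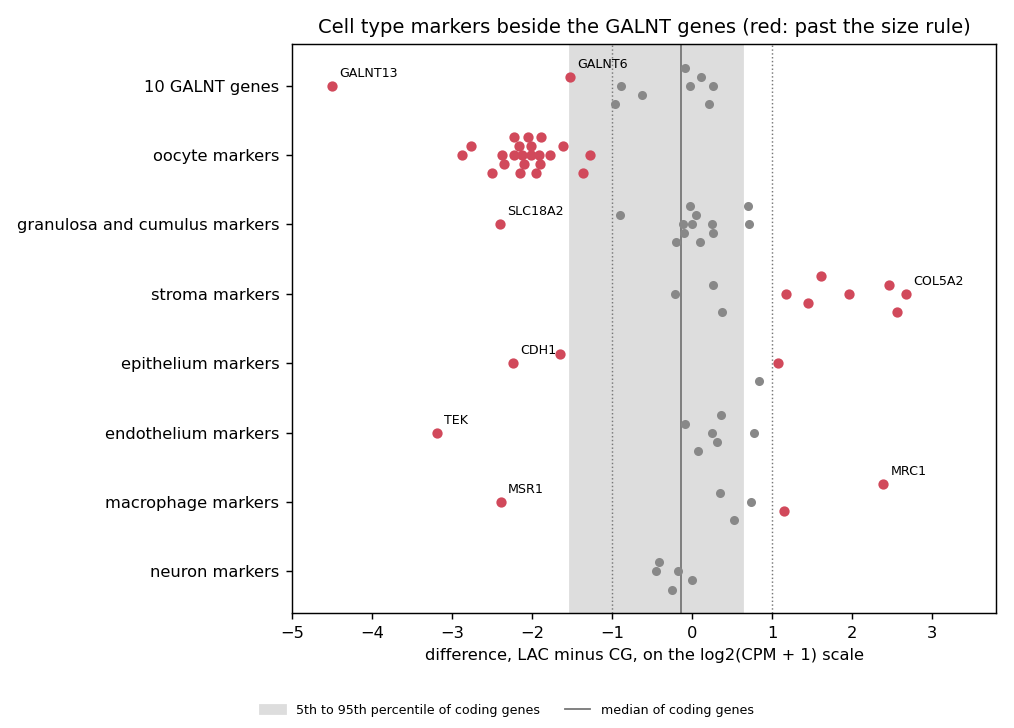
Difference between LAC and CG on the log2(CPM + 1) scale for the 10 GALNT genes and for measured markers of 7 cell types, with red points past the size rule and the grey band from the 5th to the 95th percentile of coding genes. The 22 oocyte markers lie between -2.88 and -1.28, right of GALNT13 at -4.50, and 7 of 10 stroma markers lie above 1.

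The genes with the most similar levels were looked up among 12532 coding genes with a symbol of their own, by distance in the plane of log2(CPM + 1) in CG and LAC. With only these 2 libraries likeness means a similar CPM in both, with no account of transcript length, and says nothing about equal abundance. Nearest to GALNT13 was GJA4, the gap junction protein connexin 37, with 23.0 CPM in CG and 0.0736 CPM in LAC at a distance of 0.042. The next were SHISA9, an auxiliary subunit of glutamate receptors, at 0.81, and the acyltransferase MOGAT2 at 0.97. GJA4 was thus the one gene close to GALNT13, with 1824 counts in CG and 5 in LAC. Nearest to GALNT1, the GALNT gene with the highest mean CPM, were EP300, TIAL1 and MDN1, all within 0.018.

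Low values did not extend over the surroundings of GALNT13. In a window of 5 Mb to each side of it, 29 other coding genes had enough counts, and 0 passed the rule in either direction, beside 1.89% higher and 11.0% lower among all coding genes. Their differences lay between -0.97 for ACVR1C, a receptor of the TGF-beta family, and 0.87 for the potassium channel gene KCNJ3, the next measured coding gene after GALNT13. On the other side, the nearest measured coding gene ARL6IP6 gave 42.9 CPM in CG and 54.2 CPM in LAC. With TMM from coding genes alone KCNJ3 passed as higher, and with a pseudocount of 0.1 KCNJ3 passed as higher and ACVR1C as lower. GALNT5 lies in the window and GALNT3 farther along the same sequence.

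**Figure D4:**
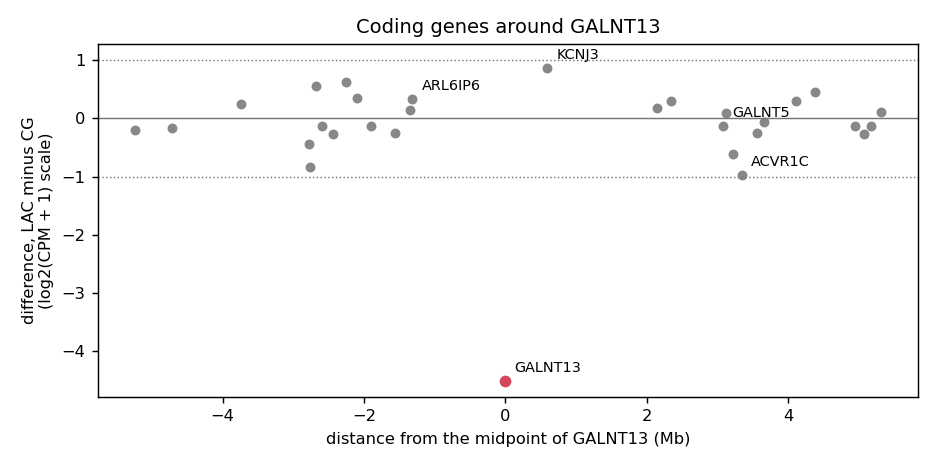
Difference between LAC and CG on the log2(CPM + 1) scale against the distance in Mb from the midpoint of GALNT13, 1 point per coding gene. GALNT13, in red, lies at -4.50 and the 29 other genes lie between -0.97 and 0.87, inside the dotted lines at -1 and 1.

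Around all 10 genes, 20 nearest coding neighbours were compared, 1 on each side. By the size rule 0 were higher and 4 of the 20 were lower, beside 1.89% higher and 11.0% lower among all coding genes. With TMM from coding genes alone 2 were higher and 3 lower. The neighbours of GALNT6 on both sides were lower: BIN2 at -2.34 and SLC4A8, a sodium bicarbonate transporter, at -1.62. GALNT6 lies on the minus strand of NC_013672.1 from 35638500 to 35679601, 26625 bases from BIN2 and 32286 bases from SLC4A8. The other lower neighbours were PGBD5 at -1.16 beside GALNT2, and SAP30L at -1.14 beside GALNT10, whose own values differed little.

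Long non-coding loci are the values the files hold for all 3 libraries. The values labelled HAC played no part in choosing the genes, while gene values of CG and LAC were known. The column labelled LAC matches the gene table used as LAC, so which library is LAC is as uncertain here. Long non-coding values are in FPKM, a level scaled by transcript length and library size. The rule was a difference of at least 1 on the log2(FPKM + 1) scale, given 1 FPKM or more in the higher library. Only 2 of 13113 such loci lie inside the 10 genes. MSTRG.3031, a strandless locus of 406 bases in an intron of GALNT14, from 155131673 to 155132078 on NC_013670.1, gave 2.23 FPKM in CG, 0.84 FPKM in LAC and 0.43 FPKM in HAC. These values correspond to about 38.7, 13.1 and 7.25 reads, so CG was the highest library and both ammonia libraries were lower. This locus is the small row of the gene table that carries the name of GALNT14, with 78 counts in CG and 27 in LAC. Its CG and LAC values are therefore no second measurement of that row, and its HAC comparison uses the same CG value.

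MSTRG.3031 was 5.19-fold lower in HAC than in CG (counting interval 2.32 to 13.5), a difference of -1.18 that passed the rule but came to -0.41 with a pseudocount of 5. By that rule 5.64% of 8647 long non-coding loci were lower in HAC than in CG. It was 2.65-fold lower in LAC than in CG (1.39 to 5.41), a difference of -0.81 that did not pass, where 10.8% of 9588 loci did. That difference passed with median-of-ratios factors, at -1.05, and with a pseudocount of 0.1, at -1.31. HAC was 1.95-fold lower than LAC, with an interval from 0.733 to 5.68 that spans no difference. Both of those values were under the 1 FPKM that the rule asks for, so the rule was not applied to that pair. The comparisons of LAC and of HAC with CG share the CG library. The locus has no strand, so its reads cannot be told apart from those of unspliced GALNT14 RNA, and GALNT14 itself has no gene value in HAC.

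The other locus, LOC103345468, lies opposite in strand to GALNT7 within it and gave 0.3 FPKM in CG and 0 in LAC and HAC, under the 1 FPKM the rule asks for. In a search added after the data were seen, 17 further loci lay within 100 kb of the 10 genes. By the rule none of those with enough signal was lower than in CG, though some lay below CG without passing it. Over all loci 10.8% were lower in LAC and 5.64% in HAC. Of 11 loci with enough signal in LAC 1 was higher, and of 7 in HAC 1 was higher, where 13.2% and 8.21% of all loci were. Between HAC and LAC, 1 of 10 was lower in HAC, where 12.3% of 9939 loci were, and 0 were higher, where 14.6% were. The locus higher in HAC, MSTRG.3602 near GALNT10, gave 0.5 FPKM in CG, 0.82 FPKM in LAC and 2.31 FPKM in HAC. MSTRG.2158 near GALNT7 gave 0.21, 1.6 and 0.09 FPKM in CG, LAC and HAC, so it was high in LAC alone and accounts for both the higher locus in LAC and the lower one in HAC. No long non-coding locus near GALNT13 was listed within 100 kb.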

How the data were processed

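Ribosomal RNA was depleted and second strands were marked with dUTP, per the labels' protocols. Per the submitters' processing notes, fastp, HISAT2 and OryCun2.0 were used. The transcript assembler and quantifier are not given in the sources used here, nor whether counts use strand. Per the file headers, each file stacks statistics blocks, a gene table with estimated counts and FPKM, and a long non-coding table with FPKM and coverage, a signal of read depth per base, all as the authors deposited them. Of 12 value columns, 2 were left unused as copies. Coverage of the LAC column gave the gene table's count within 5% at 97.2% of 8638 loci, against 4.12% of 8795 for the HAC column.

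Counts equalled coverage times length over 75 bases, with reads of 150 bases, so intervals were computed on halved counts: Poisson for levels and Clopper-Pearson for ratios, at 95%. The design had assumed whole columns of estimated counts, and the files stack them with other blocks. TMM (trims of 30% and 5%) was computed in Python 3.11.15 with pandas 2.3.3, numpy 2.4.6 and SciPy 1.17.1, with a pseudocount of 1, and tested on simulated data. Alternatives were other scalings, FPKM, pseudocounts, filters and a stricter rule.

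The genes and lists were chosen with earlier results of these data known. Named genes are all 10, list genes past the rule, up to 3 per list with the highest mean CPM, and the 3 nearest in level to GALNT13 and GALNT1. FGF23, LRP2, C1GALT1C1, list genes at 0, copies, neighbours and single markers were named for their role or place, after their values were seen. Sequences of these genes were not used here.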

Additional observations from a re-analysis of the deposited data

How the results depend on the processing

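The number of GALNT genes lower in LAC was 2 under median-of-ratios scaling, TMM from coding genes alone, library size alone, deposited FPKM and no count filter. It was 4 with a pseudocount of 0.1 (GALNT3, GALNT6, GALNT13 and GALNT14), 1 with a pseudocount of 5 and 1 with a rule of 2, both times GALNT13. With rows of the same name summed, an alternative chosen after seeing the data, it was 3, GALNT14 being added. The number higher was 0 in each. The median difference of -0.36 became -0.18 with TMM from coding genes alone and -0.25 with a pseudocount of 5. GALNT13 ranged from -6.98 to -2.49 over these settings and GALNT6 from -1.84 to -0.89. Coding genes higher and lower numbered 283 and 1653. They numbered 943 and 2740 with a pseudocount of 0.1, 112 and 909 with a pseudocount of 5, 41 and 323 with a rule of 2, 179 and 1428 with deposited FPKM, and 396 and 1340 with TMM from coding genes alone. Of the 9 other glycosylation genes called, C1GALT1 and MGAT1 kept their calls with a pseudocount of 5, and C1GALT1 and GFPT2 with a rule of 2. With a pseudocount of 0.1 the mucin list had 2 higher and 4 lower, and the extension list 4 higher and 2 lower. With deposited FPKM, 5 of 10 stroma markers were higher. The number of long non-coding loci inside the genes lower in LAC than CG, 0, became 1 with a pseudocount of 0.1 and 1 with median-of-ratios factors. Lower in HAC than CG, 1 became 0 with a pseudocount of 5 and 0 at 10 FPKM, where no locus had enough signal. The cause of these shifts was not tested. No paired analysis was possible because each group has 1 library. Leaving out a replicate was not possible for the same reason. Counting limits GALNT13 in LAC, with 6 counts, and MSTRG.3031.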
